A study of Schizosaccharomyces pombe with 8 samples.

Results

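Fission yeast cells (Schizosaccharomyces pombe) of a strain labelled as lacking iec1 were compared with wild-type cells. The comparison takes every library carrying either label, which makes 4 of the 8 libraries of the study, with 2 in each group. The study concerns the INO80 complex and the inheritance of heterochromatin, per its title. The groups used here were iec1-delta, nht1-delta, iec5-delta and wild type, each with 2 libraries. Per the labels, every strain grew in the rich medium YEA up to mid-log phase. No other allele is given for any strain, and the labels name a different strain for each genotype. Total RNA was depleted of ribosomal RNA and sequenced after a strand-specific preparation. The labels do not say that the libraries of a group came from separate cultures, so the p-values below measure the spread between these libraries, which may be technical.

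INO80 is an ATP-driven chromatin remodeller that slides and spaces nucleosomes and acts on nucleosomes that hold the histone variant H2A.Z. Iec1 is a zinc-finger subunit of the fission yeast complex, and Nht1, an HMG-box protein, and Iec5 are further subunits. Loss of fission yeast INO80 subunits is known for effects on genes of nucleotide and phosphate metabolism and on heterochromatin.

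The coding counts came to 2208165 and 3403361 in the libraries labelled iec1, and to 3273405 and 3264745 in the wild-type libraries. The counts on noncoding features were 374760 and 534716 in the iec1-labelled libraries and 540394 and 498231 in the wild-type libraries. Levels are given as CPM, the count scaled by the size of the coding library after TMM normalization, and 3 counts equalled 0.875 to 1.38 CPM over the 8 libraries. Across genes, log2(CPM + 1) of the iec1-labelled libraries correlated at 0.982 and that of the wild-type libraries at 0.987. A gene was called higher or lower in the iec1-labelled libraries at an adjusted p under 0.05 in edgeR's quasi-likelihood test with Benjamini-Hochberg adjustment over all tested features. Fold changes are log2, iec1-labelled over wild type, with the standard error (SE), and every adjusted p below is from this test unless another tool is named. Over the 4652 tested coding genes the median log2 fold change was 0.02, and 477 genes (10.3%) were called, 374 (8.04%) higher and 103 (2.21%) lower.

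Reads over the gene named by the label were not lost. iec1 (SPAC144.02, chromosome I, 4652937 to 4654387, plus strand, build ASM294v2) had 208 and 301 counts in the libraries labelled iec1 and 134 and 119 counts in the wild-type libraries. That is 95.4 and 88.4 CPM in the iec1-labelled libraries and 40.5 and 36.4 CPM in the wild-type libraries, and both labelled libraries lay above both wild-type libraries. The log2 fold change was 1.25 (SE 0.21, adjusted p = 0.000741), and the call held when each of the 8 libraries was left out in turn. iec1 was also higher than in the iec5-labelled libraries by 1.18 (adjusted p = 0.00315, and 0.0538 without iec5 replicate 2), while its difference from the nht1-labelled libraries was 0.95 (adjusted p = 0.088). The deposited values are counts over a feature of 1451 bases, of which the RefSeq coding sequence spans 750, so 48.3% of the counted bases lie outside the coding sequence. The counts do not show which part of the feature the reads came from. The noncoding feature SPNCRNA.1010 (chromosome I, 4654243 to 4654578, minus strand) begins 400 bases past the end of the iec1 coding sequence. It had 51 and 67 counts in the iec1-labelled libraries and 22 and 18 counts in the wild-type libraries, a log2 fold change of 1.81 (adjusted p = 0.0014). Of its 336 bases, 145 overlap the iec1 feature. Because the reads at iec1 go against the label, each direction below is that of the libraries labelled iec1.

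None of the coding neighbours of iec1 was called. por1 had a log2 fold change of 0.29 (adjusted p = 0.252) and SPAC144.01 of 0.44 (adjusted p = 0.582) on its left, and ade2 had 0.30 (adjusted p = 0.158) and spe1 -0.12 (adjusted p = 0.595) on its right. Among the other 15 INO80 subunits none was called. The motor subunit ino80 had a log2 fold change of 0.28, iec3 had 0.69 (adjusted p = 0.289), nht1 had 0.16 and iec5 had -0.05. The largest negative values were -0.53 for ies6 (adjusted p = 0.25) and -0.46 for alp5 (adjusted p = 0.0911), an actin-related subunit. Over the 16 subunits the median was -0.09, and the unadjusted p was under 0.05 for 3. By DESeq2, 2 of the 16 were called, iec1 and rvb2 (adjusted p = 0.0347 in DESeq2), a helicase-like ATPase.

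The calls were mostly increases of modest size. In bulk cultures, a change in the number of cells that express a gene and a change in RNA per cell cannot be told apart. Among the 374 higher genes the median log2 fold change was 0.91, with 155 genes at 2-fold or more and 28 at 4-fold or more. Among the 103 lower genes the median size of the log2 fold change was 0.65, with 21 genes at 2-fold or more and 2 at 4-fold or more. In every called gene the iec1-labelled and wild-type libraries did not overlap, which was also true of 51.0% of all tested coding genes. Between the 2 iec1-labelled libraries the called genes differed by a median ratio of 1.14, and between the wild-type libraries by 1.15. Lower calls followed the level of the gene: in 4 equal bins from low to high mean level they made up 0.602%, 1.63%, 2.67% and 3.96% of the tested genes. Higher calls made up 7.48%, 9.46%, 7.82% and 7.39% of the same bins. In 4 bins from short to long genes, higher calls made up 3.70%, 8.93%, 9.64% and 9.89%. The part of level or length in these shares was not tested. Of the 477 calls, 163 held in all 8 fits that each left out 1 library, and 134 of these were higher and 29 lower.

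Of the coding genes named by size, the largest rise was that of osr1, which encodes a dehydrogenase. It had 466 and 626 CPM in the iec1-labelled libraries and 33.5 and 45.2 CPM in the wild-type libraries, a log2 fold change of 3.79 (SE 0.24). SPCC70.08c, a predicted methyltransferase gene, had 701 and 804 CPM in the iec1-labelled libraries and 59.5 and 85.3 CPM in the wild-type libraries. SPBC609.01, of a Dis3-like exonuclease family, had 189 and 186 CPM in the iec1-labelled libraries and 20.2 and 21.4 CPM in the wild-type libraries. In each of these genes the lowest iec1-labelled library was well above the highest wild-type library. The short chain dehydrogenase gene SPCC663.08c had 211 and 258 CPM in the iec1-labelled libraries and 28.1 and 27.2 CPM in the wild-type libraries. The kinase gene ppk31 had 249 and 209 CPM in the iec1-labelled libraries and 39.6 and 41.9 CPM in the wild-type libraries. nur1 had 43.1 and 42 CPM in the iec1-labelled libraries and 9.36 and 5.2 CPM in the wild-type libraries. Nur1 is an inner nuclear membrane protein that works with Lem2 in heterochromatin silencing. caf5, a transporter gene linked to caffeine resistance, had 268 and 380 CPM in the iec1-labelled libraries and 50.7 and 79.5 CPM in the wild-type libraries. Their log2 fold changes were 3.38 for SPCC70.08c, 3.17 for SPBC609.01, 3.09 for SPCC663.08c, 2.54 for nur1, 2.49 for ppk31 and 2.32 for caf5, and all 7 calls held when each library was left out in turn.

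**Figure D1:**
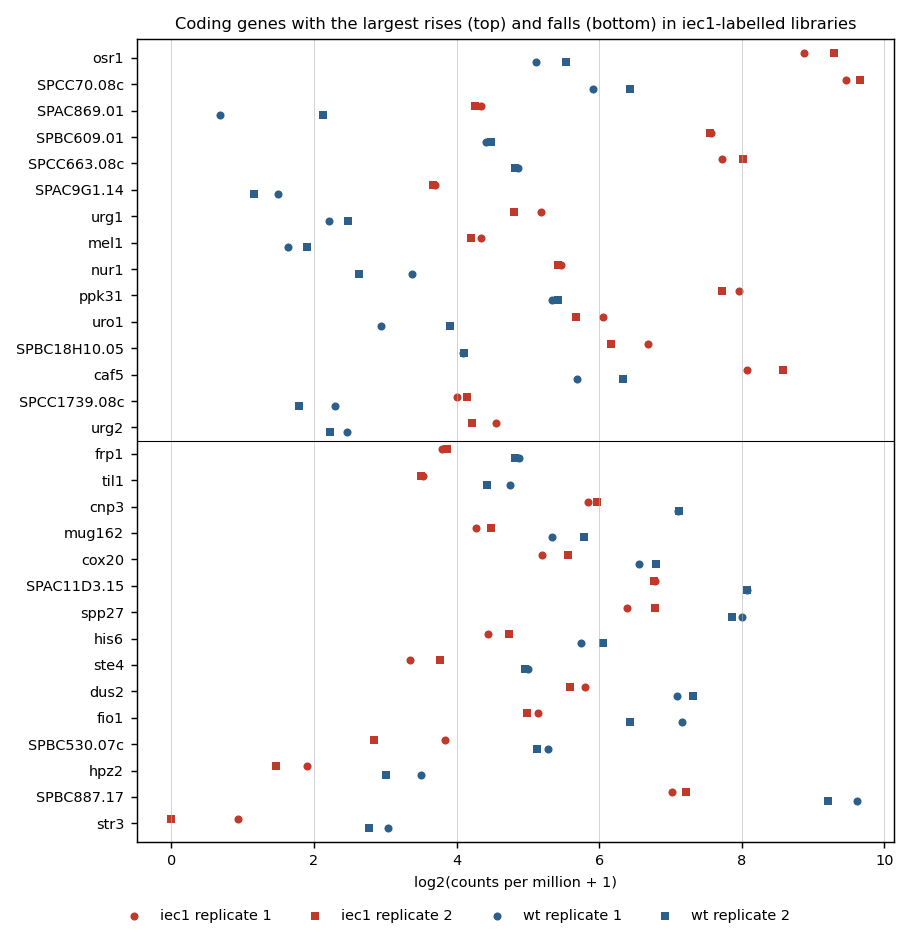
Levels of the 15 coding genes with the largest rises (above the line) and the 15 with the largest falls (below it), as log2(CPM + 1) on the horizontal axis, with red points for the iec1-labelled libraries and blue points for the wild-type libraries, circles for replicate 1 and squares for replicate 2. In all 30 genes the red and blue points do not overlap; str3 and hpz2 have the lowest values among the genes that fell.

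Some of the large rises rest on few counts or on genes that share bases with another. SPAC869.01, an amidase gene, had 19.3 and 18.2 CPM in the iec1-labelled libraries and 0.604 and 3.36 CPM in the wild-type libraries, which were 2 and 11 counts. SPAC9G1.14, with 11.9 and 11.7 CPM in the iec1-labelled libraries and 1.81 and 1.22 CPM in the wild-type libraries, overlaps the kinase gene wis4 on the opposite strand. The wis4 count was not called (log2 fold change 0.39, adjusted p = 0.0881). The WD-repeat gene SPBC18H10.05 had 101 and 70.8 CPM in the iec1-labelled libraries and 16 and 16.2 CPM in the wild-type libraries. It overlaps swd2 on the opposite strand, and swd2 had a log2 fold change of 0.31 (adjusted p = 0.815). SPCC1739.08c had 15.1 and 16.7 CPM in the iec1-labelled libraries and 3.93 and 2.45 CPM in the wild-type libraries, and its call ended without wild-type replicate 2 (adjusted p = 0.0519).

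The largest falls included genes of iron uptake, of RNA polymerase I and tRNA function, and of the centromere. SPBC887.17, which encodes a transmembrane transporter, had 129 and 148 CPM in the iec1-labelled libraries and 782 and 590 CPM in the wild-type libraries, a log2 fold change of -2.31 (SE 0.16). It overlaps SPBC887.18c on the opposite strand. dus2, for a tRNA dihydrouridine synthase, had 54.6 and 47.3 CPM in the iec1-labelled libraries and 135 and 157 CPM in the wild-type libraries. spp27, for a subunit of the upstream activation factor of RNA polymerase I, had 83 and 109 CPM in the iec1-labelled libraries and 255 and 232 CPM in the wild-type libraries. The groups did not overlap in any of them, and the log2 fold changes of dus2 and spp27 were -1.53 and -1.33. cnp3, which encodes the CENP-C-like protein of the inner kinetochore, had 56.4 and 61.4 CPM in the iec1-labelled libraries and 137 and 138 CPM in the wild-type libraries, a log2 fold change of -1.22. cox20, a cytochrome oxidase assembly gene, had 35.8 and 46.1 CPM in the iec1-labelled libraries and 93.6 and 110 CPM in the wild-type libraries, a log2 fold change of -1.30. SPAC11D3.15, for a 5-oxoprolinase of the glutathione cycle, had 109 and 108 CPM in the iec1-labelled libraries and 268 and 269 CPM in the wild-type libraries. These 6 calls held when each library was left out. str3, for a siderophore transporter, had 2 and 0 counts in the iec1-labelled libraries and 24 and 19 counts in the wild-type libraries. Its call ended without iec1 replicate 2 or either wild-type library (adjusted p = 0.0655 to 0.118). The fall of hpz2 ended without any library of the comparison (adjusted p = 0.0535 to 0.166) and in DESeq2 (0.0631). The fall of til1 ended without either iec1-labelled library or without wild-type replicate 1 (adjusted p = 0.068 to 0.142), and that of mug162 without wild-type replicate 2 (adjusted p = 0.0668).

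Genes that break down uracil and purines were the group with the highest median, though of its 16 symbols only 10 were found and 9 tested. Fission yeast uses these pathways to take nitrogen from nucleobases. Of 9 tested genes 4 rose and 1 fell, with a median log2 fold change of 0.50 against 0.02 over all tested genes. The called share was 55.6%, against 10.3% over all tested genes. urg1, for a GTP cyclohydrolase II of uracil breakdown, had 35.3 and 27 CPM in the iec1-labelled libraries and 3.62 and 4.59 CPM in the wild-type libraries. urg2, for a putative uracil phosphoribosyltransferase, had 22.5 and 17.6 CPM in the iec1-labelled libraries and 4.53 and 3.67 CPM in the wild-type libraries. uro1, for uricase, had 65.6 and 50.2 CPM in the iec1-labelled libraries and 6.64 and 14.1 CPM in the wild-type libraries. All 3 genes had every iec1-labelled value above every wild-type value, and their log2 fold changes were 2.90, 2.26 and 2.47. xan1, for a xanthine dioxygenase, had 22.9 and 17.6 CPM in the iec1-labelled libraries and 4.23 and 5.5 CPM in the wild-type libraries (log2 fold change 2.04). The member that fell was ure2, a urease gene, with 154 and 175 CPM in the iec1-labelled libraries and 273 and 287 CPM in the wild-type libraries (-0.76). urg3, which lies between urg2 and urg1, was not called (0.50, adjusted p = 0.178), nor was the uracil transporter gene fur4 (0.39, adjusted p = 0.333). The calls of urg1, urg2, uro1 and xan1 held without each library.

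Genes of nitrogen starvation and amino acid uptake gave 8 higher and 0 lower calls among 24 tested, with a median of 0.39. These calls were 33.3% of the list, against 10.3% of all tested genes. agp3, an amino acid transporter gene, had 49.1 and 47.6 CPM in the iec1-labelled libraries and 10.6 and 14.7 CPM in the wild-type libraries (log2 fold change 1.93). amt1, for an ammonium transporter, had 109 and 80.2 CPM in the iec1-labelled libraries and 47.4 and 37.6 CPM in the wild-type libraries (1.14). gdh2, for the glutamate dehydrogenase that releases ammonium, had 316 and 256 CPM in the iec1-labelled libraries and 155 and 151 CPM in the wild-type libraries (0.90). In these genes too the libraries of the groups did not overlap. The other higher members were lsd90 (1.33), isp4 (1.12), per1 (0.92), cat1 (0.70) and isp6 (0.59). Without iec1 replicate 1 or wild-type replicate 2 the calls of lsd90 (adjusted p = 0.0719 to 0.103), isp4 (0.143 to 0.195), per1 (0.0865 to 0.192) and cat1 (0.059 to 0.197) ended. That of isp6 ended without iec1 replicate 2 or either wild-type library (0.102 to 0.218). Ammonium transport and the breakdown of purines met at 1 place on chromosome III, described with the runs of neighbouring genes.

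Of 50 tested genes of amino acid synthesis, 14 were higher and 3 lower, with a median of 0.18. Calls made up 34% of this list and 10.3% of all tested genes. The higher members included 6 named for the arginine pathway: arg3 (1.14), arg4 (0.88), arg12 (0.82), arg7 (0.81), arg5 (0.74) and arg1 (0.46). arg3, for ornithine carbamoyltransferase, had 533 and 618 CPM in the iec1-labelled libraries and 224 and 298 CPM in the wild-type libraries. arg12, for argininosuccinate synthase, had 1319 and 1295 CPM in the iec1-labelled libraries and 773 and 706 CPM in the wild-type libraries. The lysine genes lys3 (0.77) and lys4 (0.72) were higher as well. The members that fell were his6 (-1.34), a histidine synthesis gene, tyr1 (-1.02), a tyrosine synthesis gene, and gdh1 (-0.48), for the glutamate dehydrogenase that takes up ammonium. his6 had 20.6 and 25.6 CPM in the iec1-labelled libraries and 52.8 and 65.1 CPM in the wild-type libraries. The call of arg4 ended without wild-type replicate 2 (adjusted p = 0.0535). That of arg7 ended without iec1 replicate 2 or wild-type replicate 1 (0.0685 to 0.0693), and that of arg1 without these or wild-type replicate 2 (0.0598 to 0.124). The call of gdh1 ended without either iec1-labelled library or wild-type replicate 1 (0.0564 to 0.199). Of 23 tested genes of nucleotide synthesis and salvage, ade7 was higher (0.72), and ade9 (-0.75) and apt1 (-0.77) were lower. ade9, which makes the folate donors of purine synthesis, had 526 and 574 CPM in the iec1-labelled libraries and 933 and 921 CPM in the wild-type libraries. The call of ade7 ended without iec1 replicate 1 (adjusted p = 0.0523), and that of apt1 without wild-type replicate 2 (adjusted p = 0.0535).

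The core stress response is the set of genes that many kinds of stress induce in fission yeast. Of 33 tested members 9 were higher and 0 lower, with a median of 0.35. Among these members 27.3% were called, against 10.3% of all tested genes. The log2 fold change was negative for 10 members, down to -1.19. DESeq2 called 9 of the list higher and 1 lower, and so did edgeR with RLE factors. osr1 and caf5, described above, belong to the list. obr1, for a quinone dehydrogenase, had 2060 and 2008 CPM in the iec1-labelled libraries and 459 and 603 CPM in the wild-type libraries (log2 fold change 1.94). gst2, for a glutathione S-transferase, had 1459 and 1856 CPM in the iec1-labelled libraries and 352 and 504 CPM in the wild-type libraries (1.95). Both genes were among the highly counted ones, and their groups were far apart. pyp2, for the phosphatase that acts on the stress kinase Sty1, had 28 and 15.3 CPM in the iec1-labelled libraries and 5.44 and 5.2 CPM in the wild-type libraries (1.98). cta3, a calcium ATPase gene, had 102 and 97.2 CPM in the iec1-labelled libraries and 39.9 and 28.1 CPM in the wild-type libraries (1.55). The peroxiredoxin gene tpx1 (0.82), the pyridoxal reductase gene plr1 (0.92) and the thioredoxin reductase gene trr1 (0.50) were also higher. The call of plr1 ended without iec1 replicate 2 (adjusted p = 0.068), and that of trr1 without iec1 replicate 1 or either wild-type library (0.105 to 0.218). Heat shock and chaperone genes gave 0 calls among 18 tested in edgeR and 0 in DESeq2, while 5 had an unadjusted p under 0.05. hsp16 had a log2 fold change of 0.70 (adjusted p = 0.0548) and ssa1 of 0.74 (adjusted p = 0.0747). With the replicate number as a block these became 0.0261 for hsp16 and 0.00145 for ssa1.

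Iron genes changed in both directions. Of 17 tested genes of iron uptake and iron regulation 4 were higher and 3 lower, with a median of -0.02. That is 41.2% called, against 10.3% of all tested genes. The lower genes were str3, fio1 and frp1, which import or reduce iron at the cell surface. fio1, for the iron transport multicopper oxidase, had 34.4 and 30.8 CPM in the iec1-labelled libraries and 142 and 85.3 CPM in the wild-type libraries (log2 fold change -1.81). frp1, for the ferric reductase, had 12.8 and 13.5 CPM in the iec1-labelled libraries and 28.4 and 27.2 CPM in the wild-type libraries (-1.07). The higher genes included sib1 (0.81) and sib2 (1.21), which make the siderophore ferrichrome. sib2 had 63.3 and 53.7 CPM in the iec1-labelled libraries and 25.1 and 25.1 CPM in the wild-type libraries. php4, for the repressor that shuts off iron-using genes when iron is scarce, had 57.3 and 64.3 CPM in the iec1-labelled libraries and 26 and 29.7 CPM in the wild-type libraries (1.13). str2, a second siderophore transporter gene, was higher by 0.77. The calls of sib1, sib2 and php4 held without each library. The call of fio1 ended without wild-type replicate 1 (adjusted p = 0.0847) and that of frp1 without any library of the comparison (0.0678 to 0.122). The call of str2 ended in 6 of the 8 fits, those without a library labelled iec1, nht1 or wild type (0.051 to 0.211).

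**Figure D2:**
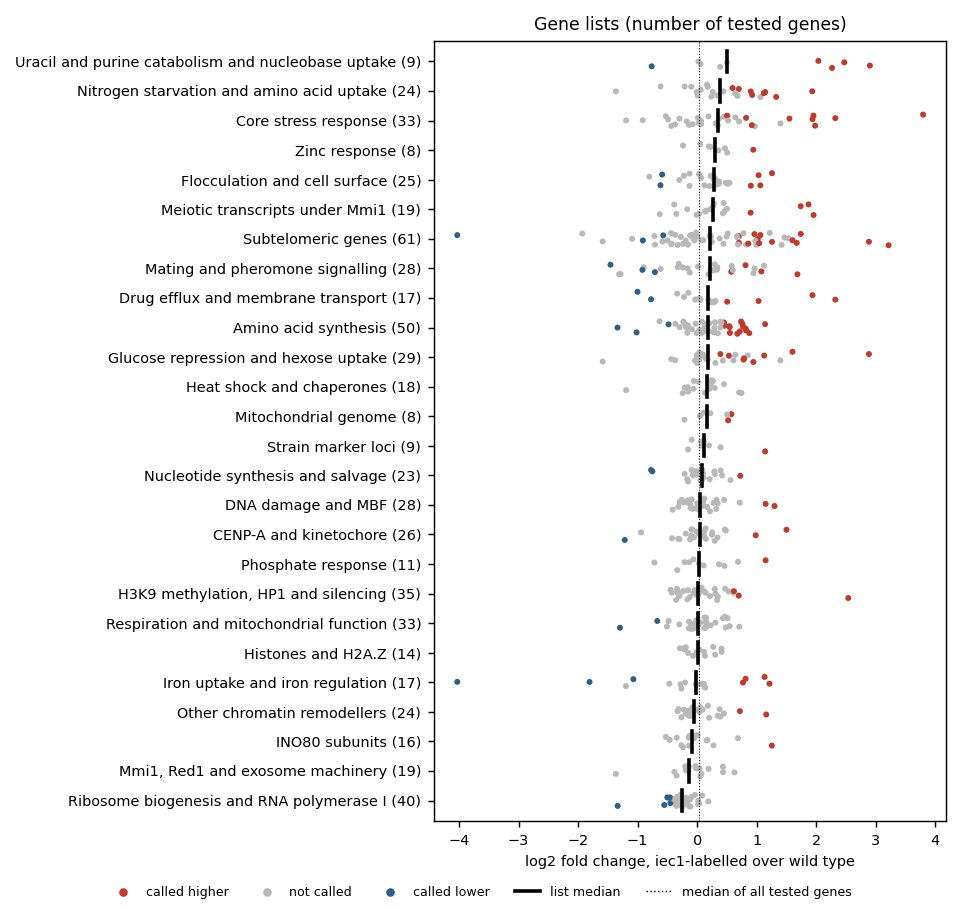
Log2 fold change, iec1-labelled over wild type, on the horizontal axis for every tested gene of 26 lists, with red for genes called higher, blue for genes called lower and grey for genes not called; black bars are list medians and the dotted line is the median of all tested genes (0.02). The medians run from 0.50 for uracil and purine catabolism to -0.26 for ribosome biogenesis and RNA polymerase I, and red and blue points stand together in lists such as iron uptake.

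Of 29 tested genes of glucose repression and hexose uptake 8 were higher and 0 lower, with a median of 0.18. Over all tested genes 8.04% were higher and 2.21% lower. mel1, for the secreted melibiase, had 19.3 and 17.3 CPM in the iec1-labelled libraries and 2.11 and 2.75 CPM in the wild-type libraries (log2 fold change 2.88). gal7, for a galactose enzyme, had 26.6 and 38.2 CPM in the iec1-labelled libraries and 13.9 and 7.64 CPM in the wild-type libraries (1.6). The hexose transporter gene ght5 was higher by 1.13 and the pyruvate decarboxylase gene pdc201 by 0.94. Without wild-type replicate 2 the calls of gal7, ght5 and pdc201 ended. gal7 also lost its call without iec1 replicate 2 (adjusted p = 0.0549 to 0.103 over these fits), ght5 without iec1 replicate 2 or wild-type replicate 1 (0.113 to 0.136) and pdc201 without iec1 replicate 1 (0.0585 to 0.135). Among 17 genes of drug efflux and membrane transport 4 were higher and 2 lower. bfr1, for the brefeldin A efflux pump, had 759 and 675 CPM in the iec1-labelled libraries and 377 and 324 CPM in the wild-type libraries (1.03). caf16, whose product belongs to the CCR4-Not complex, had 73.4 and 84 CPM in the iec1-labelled libraries and 146 and 170 CPM in the wild-type libraries (-1.0). Of 11 tested phosphate genes 1 was called: tgp1, for a glycerophosphodiester transporter, was higher by 1.15 (adjusted p = 0.00457). Its call ended without wild-type replicate 2 (adjusted p = 0.0843). The acid phosphatase gene pho1 had 0.69 (adjusted p = 0.151) and the phosphate transporter gene pho84 had -0.72 (adjusted p = 0.0643). Of 8 zinc genes 1 was called, the alcohol dehydrogenase gene adh4 (0.94).

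Of 28 tested genes of mating and pheromone signalling 4 were higher and 3 lower, with a median of 0.21. Over all tested genes the shares were 8.04% higher and 2.21% lower. Within the pheromone kinase cascade, byr2, for the kinase at its head, had 142 and 176 CPM in the iec1-labelled libraries and 48.9 and 50.4 CPM in the wild-type libraries (log2 fold change 1.68). byr1, for the next kinase, had 116 and 131 CPM in the iec1-labelled libraries and 193 and 211 CPM in the wild-type libraries (-0.71). ste4, for the adaptor of Byr2, had 9.17 and 12.6 CPM in the iec1-labelled libraries and 31.1 and 30 CPM in the wild-type libraries (-1.46). Neighbouring steps of this cascade thus had calls of opposite sign in the same libraries. The other lower member, prf1 (-0.92), is annotated as a Paf1 complex gene. sxa2, for the carboxypeptidase that degrades P-factor, was higher by 1.08, but the call ended without iec1 replicate 2 or either wild-type library (adjusted p = 0.0569 to 0.0726). Of 19 tested meiotic transcripts that the RNA-elimination factor Mmi1 is known to target, 4 were higher and 0 lower, with a median of 0.27. rec10, for a protein of meiotic linear elements, had 60.1 and 78.1 CPM in the iec1-labelled libraries and 21.1 and 14.7 CPM in the wild-type libraries (1.95). Its call held without each library. That of mug4 (1.87) ended without wild-type replicate 2 (adjusted p = 0.0527), that of spo5 (1.74) without iec1 replicate 2 or either wild-type library (0.0775 to 0.0895), and that of rec11 (0.90) without replicate 1 of either group (0.109 to 0.184). The machinery itself, 19 genes of the Mmi1, Red1 and exosome complexes, had 0 calls in edgeR and a median of -0.13. The unadjusted p was under 0.05 for 5 of them, and 1 was called by DESeq2, the exonuclease gene rrp6 (log2 fold change -0.38, adjusted p = 0.0732 in edgeR and 0.0383 in DESeq2).

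Of 35 tested genes of H3K9 methylation, HP1 proteins and silencing, 3 were higher and 0 lower in edgeR, 8.57% against 10.3% called over all tested genes, and the median was 0.02, the same as over all tested genes. With the RLE scaling the list median was -0.01. The higher genes were nur1, tas3 (0.70) and dsh1 (0.62); tas3 encodes a subunit of RITS, the RNA-induced silencing complex, and dsh1 a partner of the RNA interference machinery. The call of tas3 ended without any library of the comparison (adjusted p = 0.0533 to 0.142) and that of dsh1 without iec1 replicate 1 or wild-type replicate 2 (0.242 to 0.246). DESeq2 called 3 of the list higher and 2 lower, and so did edgeR with RLE factors. Among 26 tested CENP-A and kinetochore genes 2 were higher and 1, cnp3, was lower, which is 11.5% of the list against the same 10.3%. ams2, for a GATA factor that promotes histone transcription and CENP-A loading, had 116 and 121 CPM in the iec1-labelled libraries and 49.2 and 70.6 CPM in the wild-type libraries (log2 fold change 0.98). cnp20 was higher by 1.5, with 17 and 9.69 CPM in the iec1-labelled libraries and 3.93 and 5.2 CPM in the wild-type libraries. Its call ended without iec1 replicate 1 or either wild-type library (adjusted p = 0.107 to 0.282) and in DESeq2 (0.0603). Histone genes had 0 calls among 14 tested in edgeR and 0 in DESeq2, with 1 at an unadjusted p under 0.05. That gene was the histone H4 gene hhf2 (0.41, adjusted p = 0.0691). Of 24 tested genes of other chromatin remodellers, rsc1 (1.16) and irc20 (0.72) were higher and none was lower. rsc1, for a bromodomain subunit of the RSC complex, had 140 and 124 CPM in the iec1-labelled libraries and 55.9 and 61.8 CPM in the wild-type libraries. The call of irc20 ended without wild-type replicate 2 (adjusted p = 0.0535). Of 28 genes of the DNA damage response and of MBF, the factor for genes of S phase entry, cdt1 (1.30) and crb2 (1.15) were higher. cdt1, for a replication licensing factor, had 53.6 and 47.9 CPM in the iec1-labelled libraries and 17.2 and 23.8 CPM in the wild-type libraries, while the call of crb2 ended without iec1 replicate 1 or wild-type replicate 2 (0.116 to 0.181).

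Genes that build ribosomes were the list with the lowest median. Of 40 tested genes of ribosome biogenesis and RNA polymerase I, 0 were higher and 6 lower, the median was -0.26, and 35 had a negative log2 fold change. The lower calls were 15% of this list, against 2.21% of all tested genes. Besides spp27 the lower genes were utp15 (-0.55), nop4 (-0.50), grn1 (-0.46), utp3 and noc201, which act in processing and assembly in the nucleolus. nuc1, for the largest subunit of RNA polymerase I, had 1128 and 1221 CPM in the iec1-labelled libraries and 1592 and 1454 CPM in the wild-type libraries and was not called (-0.37, adjusted p = 0.0555). The calls of utp15 (adjusted p = 0.0922 to 0.124 without replicate 1 of either group), nop4 (0.0501 to 0.121 without iec1 replicate 2 or either wild-type library) and grn1 (0.0621 to 0.147 without iec1 replicate 1 or either wild-type library) ended when 1 library was left out, as did those of utp3 (0.0715 to 0.206 without iec1 replicate 1 or either wild-type library) and noc201 (0.069 to 0.221 without either iec1-labelled library or wild-type replicate 2). grn1 was also not called when only these 4 libraries were fitted (adjusted p = 0.0584). Of 33 respiration genes, cox20 and mae2 (-0.67) were lower and none was higher. The call of mae2 ended without iec1 replicate 2 or wild-type replicate 1 (0.0822 to 0.217). Over all tested genes 8.04% were higher and 2.21% lower. Among 25 genes of flocculation and the cell surface 4 were higher, the largest being pfl9 (1.26) and pfl8 (1.06), and 2 were lower. DESeq2 called 3 of these genes higher and 2 lower. The call of pfl9 ended without iec1 replicate 1 or wild-type replicate 2, and that of pfl8 without replicate 1 of either group. Of 8 tested genes of the mitochondrial genome 2 were higher, SPMIT.04 (0.58) and SPMIT.11 (0.52), and both calls ended without iec1 replicate 1 or either wild-type library, at adjusted p values of 0.0548 to 0.101 for SPMIT.04 and 0.145 to 0.314 for SPMIT.11.

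Genes less than 100 kb from an end of chromosome I or II gave 13 higher and 3 lower calls among the 61 tested of 126. That is 21.3% higher and 4.92% lower, against 7.86% and 2.18% of the 4591 tested genes elsewhere. Their median was 0.21. Only genes with enough counts were tested, and many members of this list were not.

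Some called genes lay side by side. There were 10 runs of 3 or more neighbouring tested genes that were all called higher and no such run of lower genes. Over all tested genes 8.04% were called higher and only 2.21% lower. How many runs these shares would give without clustering was not tested. The longest of the 10 runs held 6 genes over 16.7 kb of chromosome III, from 2068977 to 2085706. It contained amt1, the amino acid permease gene SPCPB1C11.02 (log2 fold change 1.96), the cysteine transporter gene SPCPB1C11.03 (1.03), xan1, the hydantoin racemase gene SPCC576.02 (1.84) and tpx1. The 3 tested genes on each side of this run were not called. SPCC576.02 had 106 and 105 CPM in the iec1-labelled libraries and 25.4 and 33.6 CPM in the wild-type libraries. SPCPB1C11.02 had 16.5 and 28.8 CPM in the iec1-labelled libraries and 6.34 and 5.5 CPM in the wild-type libraries. Ammonium, amino acid and purine genes thus stood next to a peroxiredoxin gene, and all 6 calls held without each library.

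**Figure D3:**
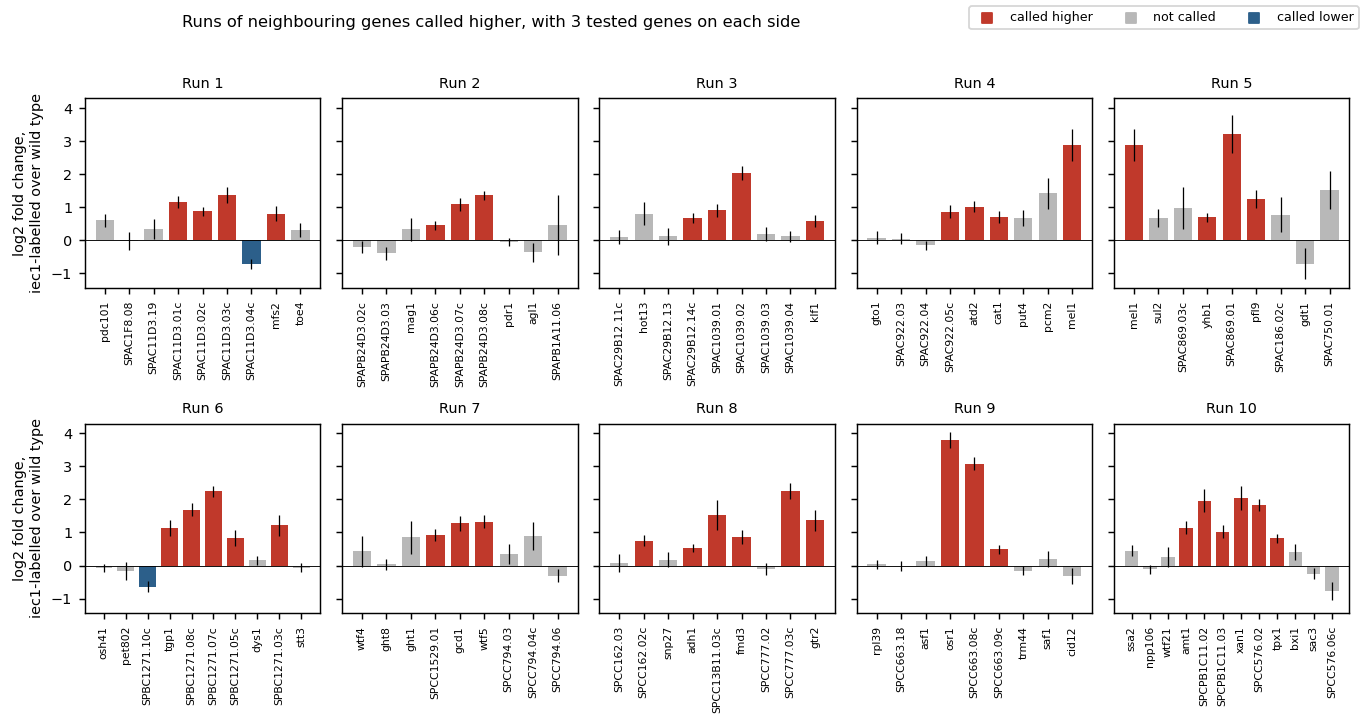
Log2 fold change, iec1-labelled over wild type, on the vertical axis for the genes of the 10 runs in genome order, with the 3 tested genes on each side of every run; bars are the fold changes and whiskers the SE. Genes inside the runs are called higher, and of the 60 flanking places 8 are called higher and 2 lower. Over all tested genes 8.04% are called higher and 2.21% lower.

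On chromosome III, osr1 and SPCC663.08c were neighbours (run from 1644754 to 1650734) and were followed by the dehydrogenase gene SPCC663.09c, which was higher by 0.49. The step between them was sharp: the next tested genes, asf1 on 1 side and trm44 on the other, had adjusted p values of 0.638 and 0.523. The call of SPCC663.09c ended without any library of the comparison (adjusted p = 0.051 to 0.165). On chromosome II, tgp1 was followed by SPBC1271.08c (1.69), the acetyltransferase gene SPBC1271.07c (2.25) and SPBC1271.05c (0.83), in a run from 350310 to 364861. SPBC1271.07c had 525 and 633 CPM in the iec1-labelled libraries and 107 and 137 CPM in the wild-type libraries. SPBC1271.08c had 159 and 133 CPM in the iec1-labelled libraries and 35.6 and 54.4 CPM in the wild-type libraries. The call of SPBC1271.05c ended without iec1 replicate 1 or either wild-type library (adjusted p = 0.0742 to 0.189). Near the left end of chromosome I, SPAC11D3.01c (1.16), SPAC11D3.02c (0.88) and SPAC11D3.03c (1.37) formed a run from 108732 to 112499. The next gene, SPAC11D3.04c, was lower (-0.72), though not without iec1 replicate 2 or wild-type replicate 1 (adjusted p = 0.0517 to 0.0545).

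The right end of chromosome I held further runs. The genes SPAC922.05c (0.86), atd2 (1.02) and cat1 formed 1 run, and yhb1 (0.70), SPAC869.01 and pfl9 formed the next. Over the whole stretch from 5482879 to 5528959, 46.1 kb that were chosen after the values were seen, 7 of 11 tested genes were higher, 0 were lower, and all 11 had a positive log2 fold change. atd2, for an aldehyde dehydrogenase, had 138 and 139 CPM in the iec1-labelled libraries and 63.1 and 74 CPM in the wild-type libraries. The call of SPAC922.05c ended without wild-type replicate 2 (adjusted p = 0.114) and that of yhb1 without iec1 replicate 2 (adjusted p = 0.0583). The remaining runs held SPAPB24D3.06c, SPAPB24D3.07c and SPAPB24D3.08c (0.45, 1.10 and 1.36), SPAC29B12.14c, SPAC1039.01 and SPAC1039.02 (0.67, 0.90 and 2.04), SPCC1529.01, gcd1 and wtf5 (0.93, 1.28 and 1.33), and adh1, SPCC13B11.03c and fmd3 (0.53, 1.53 and 0.85). The 1st of these runs was broken by the loss of SPAPB24D3.06c in each of the 8 fits without 1 library (adjusted p = 0.0546 to 0.229), in DESeq2 (0.0702) and with RLE factors (0.0616). The run of SPAC29B12.14c was broken without iec1 replicate 2 or wild-type replicate 2, through SPAC29B12.14c (0.0602 to 0.0614) and, without wild-type replicate 2, SPAC1039.01 (0.067). That of SPCC1529.01 was broken by this gene without wild-type replicate 2 (0.0535). The run of adh1 was broken in 6 of the 8 fits, those without a library labelled iec1, nht1 or wild type, through SPCC13B11.03c (0.0524 to 0.171, and 0.0518 in DESeq2). Without iec1 replicate 1 or wild-type replicate 1, adh1 (0.0653 to 0.249) and fmd3 (0.0884 to 0.135) were not called either, and adh1 also lost its call without wild-type replicate 2. Of the 10 runs, 2 kept every call in all 8 fits: that of amt1 to tpx1 and that of SPAC11D3.01c to SPAC11D3.03c.

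The noncoding counts had a limit that bears on all of them: they did not separate the strands. Of 90 noncoding features that lie wholly inside 1 coding gene on the opposite strand, where that gene had at least 100 counts, 85 had a count per kilobase within 2-fold of that of the coding gene, and none was at 0. The median ratio was 1.12 (interquartile range 1.03 to 1.29). Reads of a coding gene and of an antisense feature inside it can therefore not be told apart in these tables. Of 1096 tested noncoding features 161 (14.7%) were called, 135 (12.3%) higher and 26 (2.37%) lower, with a median log2 fold change of 0.08. Among those overlapping a coding gene on the opposite strand alone, 107 of 732 were higher and 18 lower. Among those overlapping no coding gene, 15 (10.4%) were higher and 4 (2.78%) lower.

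The noncoding calls went mostly the way of the coding genes they overlap. In 139 pairs in which an opposite-strand noncoding feature was higher, the coding gene was higher in 86 and lower in 0, with a median coding log2 fold change of 0.79. In 23 pairs in which it was lower, the coding gene was lower in 12 and higher in 1, with a median of -0.50. In 755 pairs in which it was not called, the coding gene was higher in 36 and lower in 1, with a median of 0.03. Not all of the largest noncoding changes were of this kind. prl12 (3.55), SPNCRNA.1172 (3.04), SPNCRNA.1161 (2.34), SPNCRNA.1499 (-3.82) and SPNCRNA.779 (-1.89) overlap no coding gene. Of these calls only that of SPNCRNA.1161 held without each library. Other large changes did lie in features that overlap a coding gene. SPNCRNA.1292 (3.34) overlaps SPCC70.08c, SPNCRNA.1421 (2.58) overlaps ppk31, SPNCRNA.1213 (2.39) overlaps SPCC663.08c, SPNCRNA.1345 (2.29) overlaps SPBC1271.07c, and SPNCRNA.560 (2.34) overlaps atg1801, an autophagy gene that was higher by 2.06. Among the lower features SPNCRNA.1672 (-2.68) overlaps cnp3, SPNCRNA.610 (-1.93) overlaps SPAC11D3.15 and SPNCRNA.1233 (-1.43) overlaps spp27. These 8 calls held without each library. Those of SPNCRNA.802 (-1.74), SPNCRNA.1673 (-1.51) and SPNCRNA.565 (-1.48) did not hold when 1 library was left out (adjusted p = 0.0653 to 0.245, 0.0528 to 0.349 and 0.0621 to 0.163) or in DESeq2 (0.129, 0.0821 and 0.0679).

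**Figure D4:**
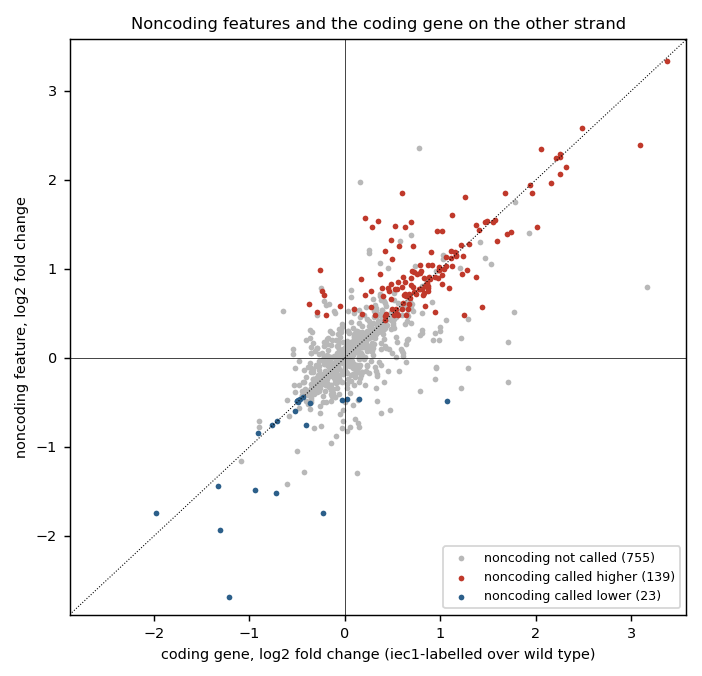
Log2 fold change, iec1-labelled over wild type, of each opposite-strand noncoding feature (vertical axis) and of the coding gene it overlaps (horizontal axis), with pairs coloured by the call of the noncoding feature. Of 139 pairs with a higher noncoding feature, 132 have a positive coding value, and of 23 pairs with a lower one, 20 have a negative coding value.

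Noncoding features away from coding genes are free of that overlap. SPNCRNA.1153 (chromosome III, 717659 to 718923, plus strand) had 420 and 926 counts in the iec1-labelled libraries and 171 and 189 counts in the wild-type libraries. That is 193 and 272 CPM in the iec1-labelled libraries and 51.6 and 57.8 CPM in the wild-type libraries, with a log2 fold change of 2.09 (SE 0.20, adjusted p = 3.37e-08). Its nearest coding neighbour on the left, bfr1, lies 2223 bases away and was itself higher. SPNCRNA.472, between the same neighbours, had 14 and 30 counts in the iec1-labelled libraries and 6 and 9 counts in the wild-type libraries, and its call ended without any library of the comparison (adjusted p = 0.0597 to 0.263). SPNCRNA.1161, which lies 41 bases from ada2 (log2 fold change 1.09), had 48 and 63 counts in the iec1-labelled libraries and 12 and 14 counts in the wild-type libraries (2.34). The call of ada2 ended without iec1 replicate 1 or either wild-type library (adjusted p = 0.0601 to 0.213). SPNCRNA.738, which lies 134 bases from the cyclin gene pas1 (0.98), had 24 and 52 counts in the iec1-labelled libraries and 10 and 10 counts in the wild-type libraries (2.12). Of the 15 higher features of this class 8 had a called-higher coding neighbour, and of the 4 lower ones 0 had a called-lower neighbour. Over all tested features of this class, 31 (21.5%) had a called-higher coding neighbour and 2 (1.39%) a called-lower one. prl105, between SPAC869.01 and pfl9, had 16 and 24 counts in the iec1-labelled libraries and 1 and 5 counts in the wild-type libraries (2.92, likewise on few counts), and its call ended without wild-type replicate 1 (adjusted p = 0.12). Among the lower ones, SPNCRNA.781 had 14 and 50 counts in the iec1-labelled libraries and 103 and 103 counts in the wild-type libraries (-1.49), and its call ended without iec1 replicate 1 (adjusted p = 0.0618). It lies beside SPNCRNA.779 (-1.89), whose call ended in 4 of the 8 fits (0.0506 to 0.48), in DESeq2 (0.0583) and with 2 groups in the fit (0.0657).

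The heterochromatic repeats gave few reads in these tables. Over 32 features annotated as centromeric or centromere-proximal, the summed counts were 36 and 59 in the iec1-labelled libraries and 50 and 59 in the wild-type libraries, 3 features could be tested, and 17 were at 0 in all 8 libraries. Of the 3 tested, SPNCRNA.1172 was called higher, and the other two, SPNCRNA.359 and SPNCRNA.480, were not called (adjusted p = 0.588 and 0.411). SPNCRNA.1172, annotated as centromere-proximal, had 25 and 24 counts in the iec1-labelled libraries and 0 and 7 counts in the wild-type libraries (log2 fold change 3.04, a size that rests on those few counts), and its call ended without replicate 1 of either group (adjusted p = 0.0597 to 0.099). In the mating-type region 4 coding features, 1 of them tested, summed to 13 and 10 counts in the iec1-labelled libraries. In the wild-type libraries they summed to 15 and 26 counts. SPNCRNA.987, which is not annotated as centromeric, had 10 and 12 counts in the iec1-labelled libraries and 0 and 0 counts in the wild-type libraries. This feature overlaps a coding gene, so its reads cannot be assigned to it alone.

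Some of these coding genes have a known regulatory noncoding RNA upstream. The RNA nc-tgp1, whose transcription represses tgp1 in phosphate-rich cells, had a log2 fold change of -0.25 (adjusted p = 0.291), with tgp1 at 1.15. nam1, annotated as repressing byr2, had -0.23 (adjusted p = 0.56), with byr2 at 1.68. The pho1-repressing prt was higher by 0.60 (adjusted p = 0.0358, and 0.266 to 0.633 without iec1 replicate 1 or wild-type replicate 2), with pho1 at 0.69 and not called, and prt2, which represses pho84, had -0.53 (adjusted p = 0.0946). For nc-tgp1 and nam1 the log2 fold change had the opposite sign to that of the coding gene, without a call. That of prt and prt2 had the same sign as that of pho1 and pho84. The counts do not separate the strands, and whether these RNAs acted on the genes was not tested.

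The iec1-labelled libraries were then set against the libraries of the other INO80 strains, without the shared wild type. Reads over nht1 were not lost under its own label either: the gene had 24.9 and 34.9 CPM in the nht1-labelled libraries and 48.6 and 41.6 CPM in the wild-type libraries. It had 41.3 and 58.4 CPM in the iec1-labelled libraries, a difference from the nht1-labelled libraries of 0.76 that was not called (adjusted p = 0.417). iec5 had 10 and 5 counts in the iec5-labelled libraries and 41 and 42 counts in the wild-type libraries. Directions against nht1 are therefore those of the libraries with that label. Against the nht1-labelled libraries 7 coding genes were called, 6 higher (0.129% of those tested) and 1 lower (0.0215%). ppk31 had 249 and 209 CPM in the iec1-labelled libraries and 101 and 113 CPM in the nht1-labelled libraries, a log2 fold change of 1.10. bir1, for the survivin of the chromosomal passenger complex, had 146 and 160 CPM in the iec1-labelled libraries and 71.1 and 73.5 CPM in the nht1-labelled libraries (1.08). It overlaps SPCC962.01 on the opposite strand. SPBC18H10.05 had 101 and 70.8 CPM in the iec1-labelled libraries and 23.9 and 25.8 CPM in the nht1-labelled libraries (1.78). In each of these genes the iec1-labelled libraries did not overlap the nht1-labelled ones, as in 33.1% of all tested genes. SPCC70.08c (1.28), SPBC609.01 (0.96) and the aminotransferase gene SPBC1773.03c (0.80) were the other higher genes. SPBC887.17, with 129 and 148 CPM in the iec1-labelled libraries and 265 and 227 CPM in the nht1-labelled libraries, was the lower gene (-0.83). In the wild-type libraries SPBC18H10.05 had 16 and 16.2 CPM and bir1 43.8 and 33 CPM. The count of calls was 0 without nht1 replicate 1 and 1 without nht1 replicate 2, 11 without iec5 replicate 2, 18 in DESeq2 and 32 when only these 4 libraries were fitted. iec1 is not among these genes, as given above, and the other coding genes named so far missed the threshold against nht1. For osr1 the difference was 0.92 (adjusted p = 0.088), for nur1 0.67 (adjusted p = 0.763) and for urg1 1.47 (adjusted p = 0.0854), which does not show that they were alike.

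**Figure D5:**
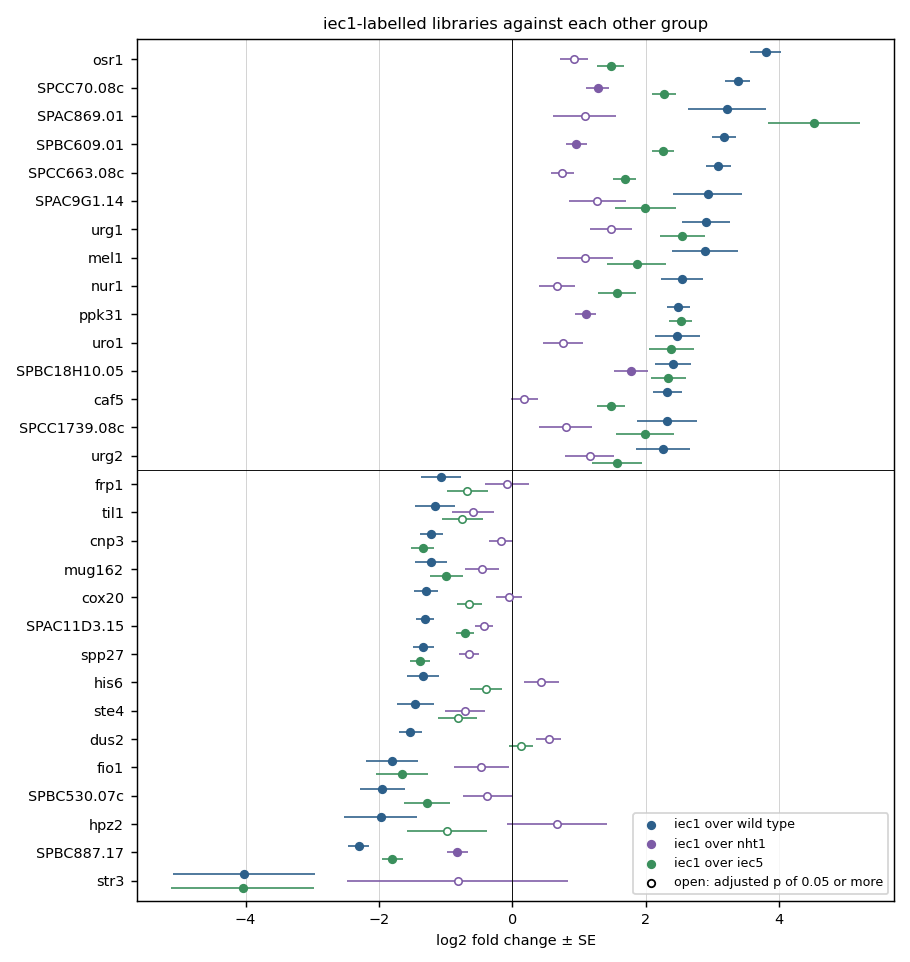
Log2 fold change of the iec1-labelled libraries over wild type, over nht1-labelled and over iec5-labelled libraries on the horizontal axis, with whiskers for the SE, for the 30 genes with the largest rises and falls against wild type; filled points passed an adjusted p of 0.05 in that comparison. Against wild type all are filled because that comparison chose them, and against nht1 the filled ones are SPCC70.08c, SPBC609.01, ppk31, SPBC18H10.05 and SPBC887.17.

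Against the iec5-labelled libraries 219 coding genes were called (4.71%), 187 higher (4.02%) and 32 lower (0.688%). The higher genes included many described above. ppk31, at 249 and 209 CPM in the iec1-labelled libraries, had 42.5 and 37.3 CPM in the iec5-labelled libraries, a log2 fold change of 2.52. urg1 was higher by 2.55, uro1 by 2.38, SPBC609.01 by 2.26, byr2 by 1.44 and agp3 by 1.82. cnp3 was lower than in the iec5-labelled libraries by a log2 fold change of -1.35, spp27 of -1.38 and fio1 of -1.65, while dus2 (0.13, adjusted p = 0.764) and his6 (-0.40, adjusted p = 0.456) were not called. The largest positive values were those of genes at or near 0 in the iec5-labelled libraries. gdt1 had 3.67 and 4.7 CPM in the iec1-labelled libraries and 0 and 0 counts in the iec5-labelled libraries, and SPBC23G7.10c, for a flavin oxidoreductase, had 53.2 and 74.9 CPM in the iec1-labelled libraries and 1.65 and 4.08 CPM in the iec5-labelled libraries. gdt1 did not differ by the test from wild type (-0.71, adjusted p = 0.405), while SPBC23G7.10c was higher than in wild type by 2.03. The call of fio1 ended without iec5 replicate 1 (adjusted p = 0.411) and that of gdt1 without iec5 replicate 2 (0.0508). The number of calls was 125 without iec1 replicate 1, 115 without iec5 replicate 1 and 86 without iec5 replicate 2.

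Among noncoding features 6 were called against nht1 (0.547%), 5 of them higher (0.456%), and 85 against iec5 (7.76%). SPNCRNA.1487, which overlaps mag2, stood apart in both comparisons. It had 212 and 176 CPM in the iec1-labelled libraries, 77.1 and 91.3 CPM in the nht1-labelled libraries, 28 and 45.8 CPM in the iec5-labelled libraries and 148 and 82.2 CPM in the wild-type libraries. The log2 fold change was 1.20 over nht1 (adjusted p = 0.00233, and 0.061 without nht1 replicate 1), 2.38 over iec5 (adjusted p = 6.6e-08) and 0.75 over wild type (adjusted p = 0.0149). That last call ended without iec1 replicate 1 or wild-type replicate 2 (0.129 to 0.278). mag2 itself was not called against wild type (-0.24, adjusted p = 0.892). SPNCRNA.1153 was higher than in the nht1-labelled libraries by 0.95 (adjusted p = 0.00952), with 121 and 121 CPM there, and this call ended without either nht1-labelled library or iec1 replicate 2 (0.0664 to 0.55). SPNCRNA.1094 was the 1 feature (0.0912%) called lower than in the nht1-labelled libraries, with 31.6 and 22.6 CPM in the iec1-labelled libraries and 80.8 and 64.7 CPM in the nht1-labelled libraries (-1.45).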

How the data were processed

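RNA was sequenced from 8 libraries of S. pombe, in 4 groups of 2. The authors deposited a table of counts for coding and another for noncoding features. Per the submitters' processing notes, HISAT2 2.1.0, featureCounts 1.6.1 and DESeq2 1.28.0 were used with build ASM294v2. The strand setting of the counting, the handling of multi-mapped reads and read filters were not given in the sources used here. Depths of the compared libraries and the CPM value of 3 counts stand in the report. Intervals and floors based on counts cover counting error only.

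The raw counts went into the quasi-likelihood F test of edgeR 4.0.16, run under R 4.3.3 (TMM factors, default low-count filter, 1 fit of all 8 libraries, Benjamini-Hochberg adjustment, threshold 0.05). The noncoding features took library sizes and TMM factors from the coding table. The common biological coefficient of variation was 11.9% for coding genes and 13.1% for noncoding features. The SE of a log2 fold change is its size over the square root of F. Symbols, products and the iec1 coding sequence came from RefSeq on build ASM294v3, which matched 5115 of 5137 coding and 1428 of 1528 noncoding features. Coordinates are those of the deposited tables on ASM294v2, and no sequence is shown. The 26 gene lists named 720 symbols, of which 693 were found. Members of lists are described by counts and medians, with no set test.

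The genes named were iec1, its neighbours and the INO80 subunits; the 15 largest rises and 15 largest falls among coding genes and the 8 each way among noncoding features, with a mean log2 CPM above 2 and groups that do not overlap; up to 4 called members of each list, or the 2 of smallest p; runs of 3 or more neighbouring called genes; and the 5 largest each way against nht1 and iec5. Further members of the lists, noncoding features that overlap no coding gene, the check of strands and the stretch at the right end of chromosome I were added after their values were seen. The comparison, its lists and this rule were chosen with earlier results of these data known. Alternatives were DESeq2 1.42.0, RLE factors (for noncoding features their own normalization), no filter, a replicate block, fits of 2 groups, a minimum log2 fold change of 1, and 8 fits each without 1 library. The scripts were tested on simulated data. Tables were made with pandas 2.3.3, numpy 2.4.6 and Python 3.11.15, and figures with matplotlib 3.10.9.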

Additional observations from a re-analysis of the deposited data

How the results depend on the processing

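Against wild type, 477 coding calls (374 higher, 103 lower) became 480 in DESeq2 (334 higher, 146 lower), 497 with RLE factors (361 higher, 136 lower), 481 with no low-count filter, 402 with 2 groups in the fit (329 higher, 73 lower) and 176 with a minimum log2 fold change of 1. The fits without 1 library gave 234 to 484 calls, with 290 without iec1 replicate 1 (49 lower), 295 without wild-type replicate 1 (66 lower) and 234 without wild-type replicate 2 (47 lower). The number of lower calls rose in DESeq2 and with RLE factors, while that of higher calls fell. The 161 noncoding calls became 111 in DESeq2 and 74 with the minimum fold, and 107 (without iec1 replicate 1) to 164 when 1 library was left out. Against nht1 the 7 calls became 18 in DESeq2, 32 with 2 groups and 4 with the minimum fold, and 0 to 11 when 1 library was left out. Against iec5 the 219 calls became 92 with the minimum fold and 86 to 210 when 1 library was left out. The cause of these differences was not tested, beyond the fewer libraries or the stricter rule that the fit itself has.

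With the replicate number as a block, calls rose to 695 coding and 210 noncoding against wild type, 25 against nht1 and 329 against iec5. The labels do not call the number a batch. Deviations of libraries with the same number correlated at 0.08 between iec1-labelled and wild type, -0.07 between iec1-labelled and nht1 and 0.29 between iec1-labelled and iec5. The values were 0.16 between nht1 and wild type, 0.14 between iec5 and wild type and 0.03 between nht1 and iec5. The numbers were not taken as pairs, and whether libraries with the same number share a source of spread was not tested. Among the genes named, the block brought 6 under the threshold: alp5 (adjusted p = 0.0164), hhf2 (0.0248), hsp16 (0.0261), rrp6 (0.0275), rvb2 (0.0409) and ssa1 (0.00145).

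Of 123 called features named by the rule, 69 were called in all 8 fits without 1 library, and 13 changed their call under another setting. No direction turned. With 2 libraries a group, small changes are beyond these data, and fold changes of features with fewer than 3 counts in a library, such as SPNCRNA.1172 and prl105, are imprecise.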

Other observations

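Further groups were formed from product names after the values were seen, so their counts are descriptions. Over all tested coding genes 8.04% were higher and 2.21% lower. Genes with a dehydrogenase, oxidoreductase or reductase product gave 47 higher (28.8%) and 6 lower (3.68%) calls among 163 tested, with a median log2 fold change of 0.23, and transporters and permeases gave 35 higher (18.7%) and 6 lower (3.21%) among 187, with a median of 0.15. Both kinds include members of the lists above, such as osr1, obr1, amt1 and agp3. Among products with tRNA in the name, 1 was higher (1.16%) and 5 lower (5.81%) of 86 tested, dus2 and til1 among the lower ones. Of 117 ribosomal protein genes 0 were called in edgeR; 5 had an unadjusted p under 0.05, DESeq2 called 1, and 45 had a positive log2 fold change, with a median of -0.07.

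Products that break down or carry nucleobases reached beyond the genes of the fixed list. The cytosine deaminase gene SPCC965.14c had 140 and 139 CPM in the iec1-labelled libraries and 34.1 and 34.9 CPM in the wild-type libraries (log2 fold change 2.0). The purine nucleoside transporter gene SPCC285.05 had 56.4 and 35.2 CPM in the iec1-labelled libraries and 13.9 and 13.1 CPM in the wild-type libraries (1.74). The guanine deaminase gene gud1 had 475 and 538 CPM in the iec1-labelled libraries and 250 and 297 CPM in the wild-type libraries (0.89). The calls of all 3 genes held without each library. The nucleoside hydrolase gene SPBC800.11 had 149 and 117 CPM in the iec1-labelled libraries and 51 and 81 CPM in the wild-type libraries (1.0), and its call ended without wild-type replicate 1 (adjusted p = 0.0724). The words that found these genes matched 60 tested products, with a median log2 fold change of 0.10. Of these products 16 were higher and 4 lower, and some of them are not nucleobase genes. The lower ones were apt1 (-0.77), kae1 (-0.76), ado1 (-0.52) and mta1 (-0.44).

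Some further called genes were picked after their values were seen. Among products named as transcription factors 10.7% were higher, and among protein kinases 10.6%, against 8.04% of all tested genes. med13, of the Mediator kinase module, had 133 and 142 CPM in the iec1-labelled libraries and 43.2 and 37.3 CPM in the wild-type libraries (1.78). srb8, which encodes Med12 of the same module, had 285 and 267 CPM in the iec1-labelled libraries and 143 and 151 CPM in the wild-type libraries (0.90). Of 17 tested Mediator subunits 3 were higher and 0 lower, where 8.04% of all tested genes were higher and 2.21% lower. lsk1, for a kinase of RNA polymerase II, had 209 and 167 CPM in the iec1-labelled libraries and 55.6 and 52.6 CPM in the wild-type libraries (1.79). bdp1 and sfc3, which act in transcription by RNA polymerase III, were higher by 1.25 and 0.99. cgs1, for the regulatory subunit of protein kinase A, was lower, with 133 and 167 CPM in the iec1-labelled libraries and 269 and 301 CPM in the wild-type libraries (-0.92). The histone methyltransferase gene set5 had 47.7 and 51.7 CPM in the iec1-labelled libraries and 92.1 and 104 CPM in the wild-type libraries (-0.98). Each of these named calls held without each library. Of 28 autophagy genes 3 were higher and 0 lower, not far from the 8.04% and 2.21% of all tested genes. atg1801 and atg20 (1.81) were among the higher ones, and the call of atg20 ended without wild-type replicate 1.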
